A study of Danio rerio with 3 samples.

Results

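The genes fabp11a, lpl, rbp7b, cd36 and scarb1, which handle fatty acids, lipoproteins and retinol were followed through endothelial cells sorted from the anal fin of immature zebrafish. They were chosen by name, with earlier results of these data known. All 5 have a row among the 25839 rows of the count tables, of which 16029 held a count in some well. The cells carried a dsRed reporter under fli1a regulatory sequence, came from 80 dissected fins at stage II-III, and were sorted as single cells into 3 plates of 384 wells for MARS-seq. No treatment, genotype contrast or control sample was part of the design, so the comparison is between classes of wells within each plate. MARS-seq reads the 3' end of poly(A) RNA, marks each molecule with its well and a unique molecular identifier (UMI), and levels are given here as CPM, the gene's UMIs scaled to a common total over the pooled wells.

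In capillaries, lipoprotein lipase, encoded by LPL, acts at the vessel surface and frees fatty acids from circulating triglyceride. The scavenger receptor CD36 takes fatty acids up, and in mammals the endothelial protein FABP4 carries them in the cytosol; the zebrafish gene fabp11a also goes by the name fabp4a. RBP7 is a cytosolic retinol-binding protein found in mammalian endothelium, and SCARB1 binds high-density lipoprotein.

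Wells were sorted into classes by the water channel gene aqp8a.1, high in fin blood endothelium, and the hyaluronan receptor gene lyve1a, a lymphatic marker. Of the 1036 wells that the authors listed as analysed, 672 held at least 500 UMIs and entered the comparison. Wells with at least 5 aqp8a.1 UMIs and no lyve1a UMI are called aqp8a.1-high (160 wells), and wells with at least 1 lyve1a UMI and fewer than 5 aqp8a.1 UMIs lyve1a-positive (186 wells). A further 99 wells met both gates and 227 met neither. With the lyve1a gate at 2 UMIs, 55, 41 and 12 wells by plate were lyve1a-positive, against 92, 67 and 27. All 6 further lymphatic markers were lower in aqp8a.1-high wells on the 3 plates, with a sum of 612 to 860 CPM against 2236 to 3067 in lyve1a-positive wells. Of 8 further blood markers, 6 were higher in aqp8a.1-high wells on the 3 plates, and dll4 and vsg1 were not. The most abundant of them, vsg1, did not follow the gates, at 2598, 2410 and 2940 against 2798, 3236 and 2697 CPM. The other 7 summed to 3075, 4404 and 4784 CPM in aqp8a.1-high and 762, 1108 and 1293 in lyve1a-positive wells. Of 10 pan-endothelial markers, 5 were higher in aqp8a.1-high wells on the 3 plates, cdh5, pecam1 and kdrl among them, while tek and erg were lower and etv2 had no UMI. The part of these differences in the results for the members was not tested.

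The plates held 559559, 481392 and 221176 UMIs, and plate 3 was the shallowest, with 112 of its wells used against 289 and 271. All 384 cell barcodes recur on each plate. Median depth was 854 to 1522 UMIs in aqp8a.1-high and 833 to 1578 in lyve1a-positive wells, and mean depth 1701, 1426 and 1004 against 1954, 1859 and 1002, so lyve1a-positive wells were deeper on average on plates 1 and 2. Ribosomal protein RNA took 14.2% to 17.0% and 15.3% to 17.6% of their UMIs, and malat1, a nuclear RNA, stood at 5622 to 12308 and 4978 to 12563 CPM, highest on plate 3. Nothing in the labels says that the plates came from separate fish, so p-values over the 3 plates measure a spread that may be technical.

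Across the 5 genes, fabp11a was found in nearly every well, lpl and rbp7b in a minority, scarb1 in 10 wells, and cd36 in none. In aqp8a.1-high wells fabp11a, lpl and rbp7b were higher than in lyve1a-positive wells on each of the 3 plates. Sums per plate and class were tested with edgeR's quasi-likelihood test with the plate as a block, and p-values were adjusted by Benjamini-Hochberg over 1864 genes. By this test 7.62% of genes were called, 4.45% as higher in aqp8a.1-high and 3.17% as higher in lyve1a-positive wells. Of the 5 members 3 passed the filter on low counts and were tested, and those 3 were called as higher in aqp8a.1-high wells. The gene rbp7b passed the filter only through sums of aqp8a.1-high wells and of wells that met both gates, where it was highest. Its entry into the test was thus tied to its result, and without the filter its adjusted p was 0.0677 by edgeR. The members were also chosen with earlier results of these data known, so the count of called members is a description and no independent result.

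**Figure D1:**
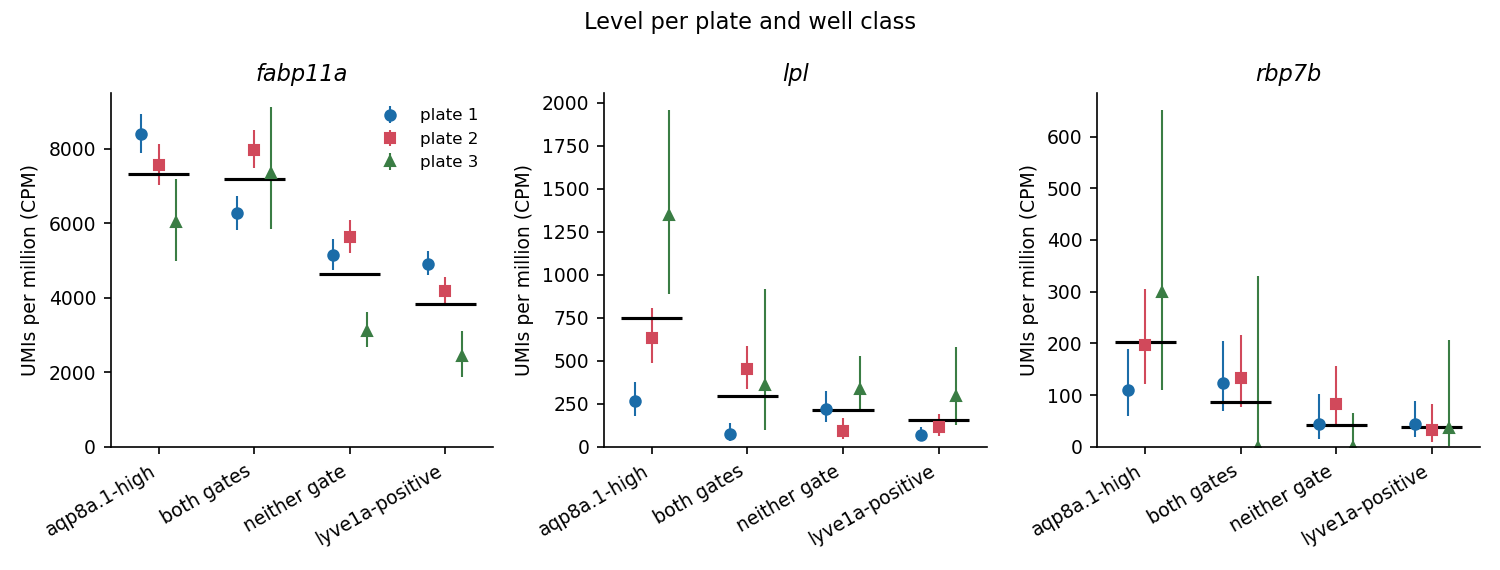
Level of fabp11a, lpl and rbp7b in CPM (linear axis from 0) by well class; points are plates with exact 95% Poisson intervals for counting error, and black lines are means over the 3 plates. On every plate the aqp8a.1-high point stands above the lyve1a-positive point. On plate 1 the values are 8408 against 4923 CPM for fabp11a, 264 against 66.7 for lpl and 111 against 44.5 for rbp7b.

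The fatty acid-binding protein gene fabp11a stood at 8408, 7564 and 6029 CPM in aqp8a.1-high wells of plates 1, 2 and 3, and at 4923, 4175 and 2439 in lyve1a-positive wells. Every aqp8a.1-high value lay above every lyve1a-positive value, and the plates kept the same order in both classes. The means were 7334 ± 1206 and 3846 ± 1274 CPM (SD, n = 3). The ratio was 1.71, 1.81 and 2.47 on the 3 plates. In the edgeR fit aqp8a.1-high wells were higher by 0.93 on the log2 scale (SE 0.15, adjusted p = 2.62e-07), or 1.90-fold.

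Single wells show how broad that difference was. Of the aqp8a.1-high wells, 57 of 69, 58 of 71 and 18 of 20 lay above the median lyve1a-positive well of their plate, after division by the well's own UMIs. The median well held 7.95, 6.66 and 5.67 fabp11a UMIs per 1000 in aqp8a.1-high and 4.46, 3.88 and 1.93 in lyve1a-positive wells. The classes overlapped all the same, and 177 of 186 lyve1a-positive wells held a fabp11a UMI, against 157 of 160 aqp8a.1-high wells. Thinned to 500 UMIs, wells with a fabp11a UMI made up 93.4% ± 3.57 of aqp8a.1-high and 83.9% ± 2.87 of lyve1a-positive wells (SD over 3 plates). Since most wells of both classes held a fabp11a UMI, its presence could separate the classes little, and its amount separated them more. Among 71 wells of plate 3 that were off the authors' list and held under 500 UMIs, 22 held fabp11a, at 3229 CPM, and how much fabp11a in any well came from other wells was not tested. No single well carried the result, since the well with the most fabp11a held at most 12.4% of the UMIs of its class and plate in these 2 classes.

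**Figure D2:**
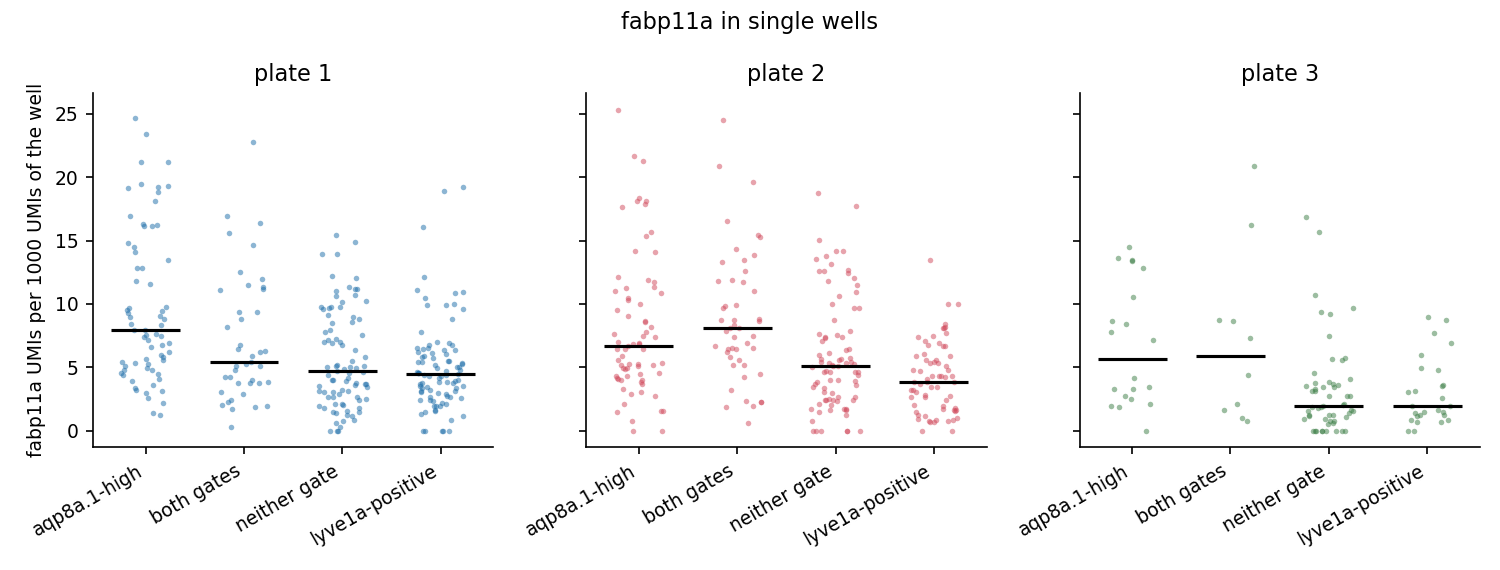
fabp11a UMIs per 1000 UMIs of the well (linear axis) in each of the 672 wells, by class and plate; points are wells with horizontal jitter, and black lines are medians. The aqp8a.1-high medians (7.95, 6.66 and 5.67) stand above the lyve1a-positive medians (4.46, 3.88 and 1.93), with overlap between single wells.

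Lipoprotein lipase RNA, from lpl, was sparser and differed by more. In aqp8a.1-high wells it stood at 264, 632 and 1345 CPM (31, 64 and 27 UMIs), and in lyve1a-positive wells at 66.7, 112 and 296 CPM (12, 14 and 8 UMIs). The values differed widely between plates, and lyve1a-positive wells of plate 3 reached higher than aqp8a.1-high wells of plate 1, so the groups overlap unless compared within a plate. Within plates the ratio was 3.96, 5.62 and 4.55. The edgeR fit gave a log2 difference of 2.25 (SE 0.35, adjusted p = 1.55e-07), or 4.77-fold.

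A UMI of lpl was found in 46 of 160 aqp8a.1-high wells (14 of 69, 23 of 71 and 9 of 20 by plate) and in 20 of 186 lyve1a-positive wells (7 of 92, 9 of 67 and 4 of 27). Wells thinned to 500 UMIs held 0.22, 0.35 and 0.50 lpl UMIs on average against 0.03, 0.07 and 0.19. At such low counts the share of wells with lpl follows the mean level, so it cannot be told apart from the amount per well. Thinned to 500 UMIs, the shares were 23.1% ± 10.4 and 6.42% ± 4.49 (SD over 3 plates). Wells with lpl could hold many copies, up to 12 UMIs in an aqp8a.1-high well of plate 2. The well with the most lpl held 18.8% to 22.2% of the lpl UMIs of aqp8a.1-high wells and 21.4% to 41.7% of those of lyve1a-positive wells. Without that well in each class and plate, the ratio was 5.50, 5.84 and 5.99. Plate order ran against that of fabp11a in these classes, with lpl highest and fabp11a lowest on plate 3.

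The retinol-binding protein gene rbp7b rested on few UMIs. In aqp8a.1-high wells it stood at 111, 198 and 299 CPM (13, 20 and 6 UMIs), and in lyve1a-positive wells at 44.5, 32.1 and 36.9 CPM (8, 4 and 1 UMIs). All aqp8a.1-high values lay above all lyve1a-positive values, but the exact 95% Poisson intervals were apart on plate 2 only (121 to 305 and 8.75 to 82.2 CPM). They overlapped on plate 1, at 59.0 to 189 and 19.2 to 87.7 CPM, and on plate 3, at 110 to 651 and 0.935 to 206 CPM. The edgeR fit gave a log2 difference of 2.07 (SE 0.53, adjusted p = 0.00338), or 4.21-fold. Without plate 2 the log2 difference was 2.00 with an adjusted p of 0.568 by edgeR, so the call of rbp7b depended on that plate. In wells thinned to 500 UMIs the call was lost as well (adjusted p = 0.321, edgeR). A UMI of rbp7b was found in 27 of 160 aqp8a.1-high and 12 of 186 lyve1a-positive wells. The well with the most rbp7b held 38.5%, 15.0% and 16.7% of the rbp7b UMIs of aqp8a.1-high wells by plate. Without that well in each class, the ratio went from 2.49 to 2.07 on plate 1 and from 6.15 to 6.97 on plate 2. On plate 3 it could not be computed, since the lyve1a-positive value was 1 UMI.

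The receptor genes were at or near the limit of detection. For scarb1 the used wells held 11 UMIs, 5 in aqp8a.1-high, 4 in lyve1a-positive, 0 in double-gate and 2 in neither-gate wells, too few for the filter, and without the filter the log2 difference of aqp8a.1-high over lyve1a-positive wells was 0.73 (SE 1.34, adjusted p = 1 by edgeR). For cd36 the count was 0 in all 1152 wells, which allows a share of up to 0.26% of wells with a cd36 UMI and up to 2.38 CPM. This limit holds for UMIs assigned to the row, and whether the counting covered the 3' end of cd36 RNA was not tested. Intervals and limits of this kind cover counting error only.

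Levels of fabp11a went with the number of aqp8a.1 UMIs in the well, and mainly above the gate. Over the 3 plates together fabp11a stood at 4480 CPM in 141 wells without aqp8a.1, 4732 in 272 wells with 1 to 4 UMIs, and 5626 in 79 wells with 5 to 9. It reached 8056 CPM in 65 wells with 10 to 19 and 8386 in 115 wells with 20 or more. On each plate the last pair of bins stood above the other three, at 8006 to 8861 CPM against 2460 to 6449. Plate 1 showed no rise below 10 aqp8a.1 UMIs, with 5353, 4917 and 4788 CPM. The bins share libraries, and their median depth ran from 885 to 1651 UMIs, highest in the last bin. After thinning every well to 500 UMIs, the level by thinned aqp8a.1 count rose over the 5 bins from 4785 through 6188, 8507 and 9310 to 11667 CPM.

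For lpl the CPM of the same bins gave no common order over the plates. On plate 2 it stood at 131, 93.0, 398, 508 and 639 CPM from the bin without aqp8a.1 upward, and on plate 1 at 91.0, 136, 126, 287 and 142. On plate 3 it stood at 402, 269, 1185, 445 and 1595 CPM. The last bin of plate 1 overlapped the first by the exact 95% Poisson intervals, 85.5 to 222 against 33.4 to 198 CPM. Wells with lpl, over the 3 plates, were 15 of 141, 40 of 272, 15 of 79, 18 of 65 and 38 of 115 in that order of bins. Thinned to 500 UMIs and binned by the thinned aqp8a.1 count, they were 18 of 270, 23 of 245, 13 of 75, 13 of 58 and 7 of 24. Unthinned, the share of wells with lpl on plates 1, 2 and 3 was 7.5%, 9.4% and 17.1% in the first bin. In the last bin it was 25.5%, 37.7% and 57.1%, the last of these over 7 wells.

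**Figure D3:**
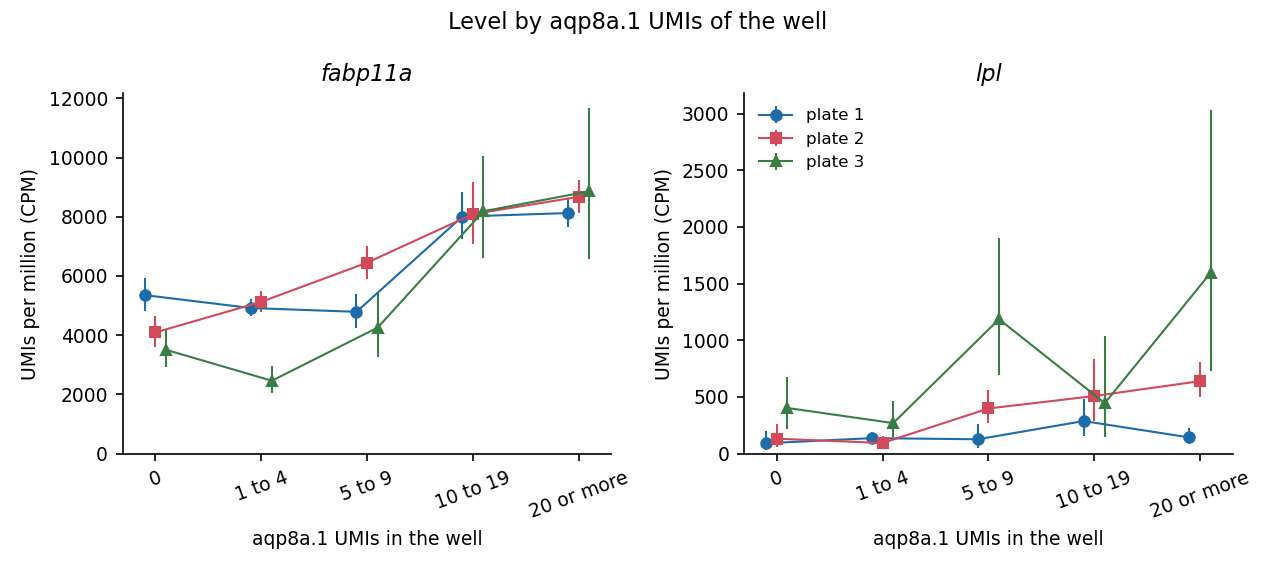
Level of fabp11a and lpl in CPM (linear axis from 0) against the aqp8a.1 UMIs of the well, in 5 bins per plate; bars are exact 95% Poisson intervals for counting error. fabp11a stands at 8006 CPM or above in the last pair of bins on all plates, while lpl on plate 1 ends at 142 CPM.

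Wells that met both gates carried fabp11a at 6268, 7973 and 7352 CPM. That was higher than in lyve1a-positive wells, by a log2 of 0.84 (SE 0.15, adjusted p = 1.32e-05, edgeR), where 1.18% of genes were called as higher in double-gate wells. Without the plate block, or without plate 2, the adjusted p was 0.053 or 0.0634. Against aqp8a.1-high wells the log2 difference was -0.09 (SE 0.15, adjusted p = 0.957, edgeR), with an approximate 95% interval of -0.38 to 0.20, in a comparison where 0.59% of genes were called. The 99 double-gate wells were deeper, with medians of 1888, 2232 and 956 UMIs. Many rested on a single lyve1a UMI. With the lyve1a gate at 2 UMIs, 15, 21 and 3 wells met both gates by plate, against 41, 48 and 10. Whether a double-gate well held 1 cell or 2 was not tested. Their lpl, at 74.5, 450 and 359 CPM, lay between the other classes on plates 1 to 3. The log2 difference of lpl from lyve1a-positive wells was 1.25 (SE 0.39, adjusted p = 0.0553, edgeR), and that from aqp8a.1-high wells lay in an approximate 95% interval of -1.63 to -0.37 (adjusted p = 0.177, edgeR), and neither passed. Leaving out plate 1 or plate 3 brought the former to 1.59 (adjusted p = 0.0391) or 1.47 (adjusted p = 0.0482) by edgeR. For rbp7b, at 124, 133 and 0 CPM, the log2 differences were 1.58 (adjusted p = 0.13) and -0.49 (adjusted p = 0.922) by edgeR, and without plate 3 the former was 1.69 (adjusted p = 0.0492, edgeR).

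Wells of neither gate carried fabp11a at 5159, 5634 and 3118 CPM and lpl at 219, 92.1 and 339 CPM. These wells were mixed, with neutrophil markers at 2321, 203 and 1229 CPM by plate. Both were lower than in aqp8a.1-high wells, by log2 differences of -0.64 (adjusted p = 0.00354) and -1.51 (adjusted p = 0.00158) in edgeR, where 0.59% of genes were called as higher in aqp8a.1-high wells. Neither call held without the plate block, with adjusted p-values of 0.393 and 0.23, nor without plate 2, with 0.113 and 0.667. The call of fabp11a was also lost without plate 1 (adjusted p = 0.244, edgeR) and that of lpl without plate 3 (adjusted p = 0.0789, edgeR). For rbp7b, at 43.8, 82.9 and 0 CPM, the log2 difference from aqp8a.1-high wells was -1.72 (adjusted p = 0.0836, edgeR). Against lyve1a-positive wells where 4.29% of genes were called, no member was, with adjusted p-values of 0.414 to 0.928 by edgeR. In order of mean fabp11a level the classes were thus aqp8a.1-high, double-gate, neither-gate and lyve1a-positive, of which neither the first pair nor the last pair differed by the test.

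Joint detection was read per well. Of the 160 aqp8a.1-high wells, 101 held fabp11a alone, 29 fabp11a and lpl, 11 fabp11a and rbp7b, and 16 all 3, while 2 held none. Of the 186 lyve1a-positive wells, 148 held fabp11a alone, 18 fabp11a and lpl, 10 fabp11a and rbp7b, 1 all 3 and 7 none. Wells with all 3 were 4 of 69, 8 of 71 and 4 of 20 in the aqp8a.1-high class by plate, and 0 of 92, 1 of 67 and 0 of 27 in the lyve1a-positive class.

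**Figure D4:**
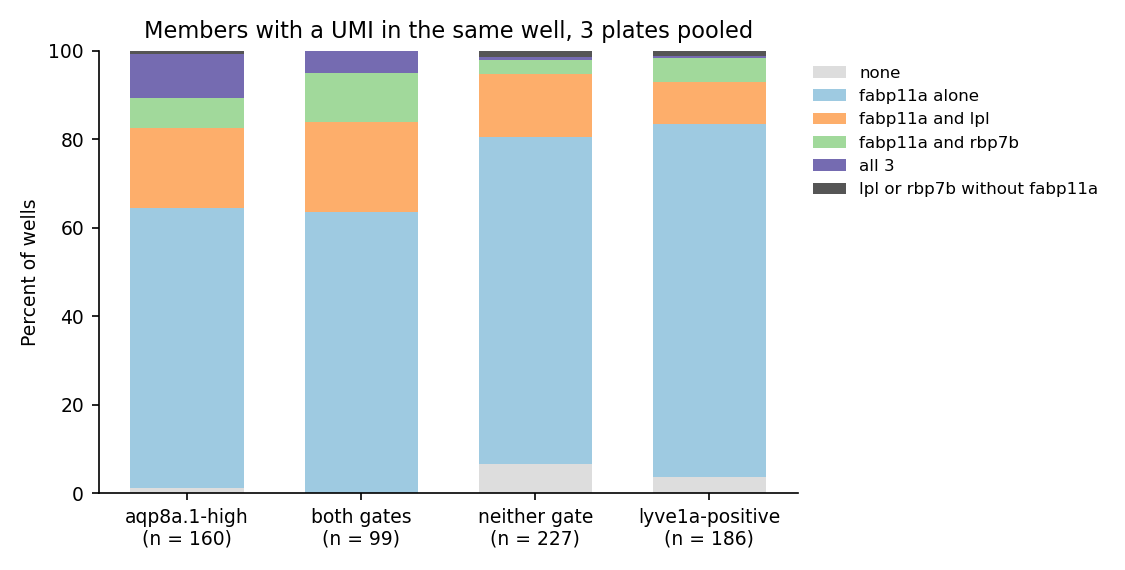
Percent of wells (linear axis from 0 to 100) by which of fabp11a, lpl and rbp7b had a UMI, 3 plates pooled, unthinned counts; bars are the 4 well classes. Wells with all 3 were 16 of 160 in the aqp8a.1-high and 1 of 186 in the lyve1a-positive class.

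Within aqp8a.1-high wells, lpl and rbp7b tended to occur in the same wells. Of wells with rbp7b, 4 of 8, 8 of 13 and 4 of 6 held lpl by plate, against 10 of 61, 15 of 58 and 5 of 14 wells without rbp7b. Thinned to 500 UMIs the counts were 1 of 4, 4 of 9 and 2 of 4 against 10 of 65, 9 of 62 and 5 of 16. Wells with rbp7b were deeper on plate 1 only, with medians of 2037, 1101 and 807 UMIs against 1426, 1411 and 875. Among lyve1a-positive wells lpl was found in 1 of 12 with rbp7b and 19 of 174 without, and among neither-gate wells in 2 of 11 and 33 of 216. Double-gate wells held lpl in 5 of 16 with rbp7b and 20 of 83 without. Thinned to 500 UMIs, the double-gate counts were 1 of 8 and 11 of 91, or 12.5% and 12.1%. In double-gate wells thinned to 1000 UMIs they were 3 of 8 and 8 of 69. The difference between the classes was not tested. The amount of fabp11a also went with rbp7b in aqp8a.1-high wells, at 9.5, 7.0 and 5.5 UMIs per thinned well with rbp7b and 4.77, 3.84 and 3.13 without. For lpl the same means were 6.18, 4.31 and 4.71 with and 4.83, 4.22 and 3.00 without. These counts and means of wells are descriptions, with no test. When aqp8a.1-high wells with and without lpl were summed per plate, a split made after the data were seen, fabp11a was higher with lpl by a log2 of 0.76 (SE 0.13, adjusted p = 7.63e-07, edgeR), in a comparison where 6.89% of 305 genes were called, 4.92% as higher with lpl. That call was lost without the plate block (0.71, adjusted p = 0.0571), without the filter on low counts (0.36, adjusted p = 0.998), without plate 1 (0.60, adjusted p = 0.184) and without plate 3 (0.80, adjusted p = 0.225) by edgeR. Without the filter the other called genes had lower log2 values too, such as malat1 (0.40 to 0.05) and icn (-1.69 to -2.12). The fall of fabp11a was thus shared with them.

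Other genes of lipid and retinoid handling were read from 6 lists with 112 rows, of which 76 held a UMI in the used wells and 16 were tested. Of the 16, 5 were called as higher in aqp8a.1-high wells, none as lower, and 11 did not pass. Among all 1864 genes tested, 4.45% were called as higher there and 7.62% in either direction. The median log2 difference was 0.39 over the 16 and -0.03 over all genes. The 16 include the 3 members reported above, which raise both the count and the median, so neither is independent of those results. The 5 were the 3 members, the caveolar coat gene cav1 and the homeobox transcription factor gene meox1, the lists having been drawn up with results for several of these genes known.

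Caveolin, encoded by cav1, forms the membrane pits that are abundant in capillary endothelium. It stood at 2019, 2340 and 2990 CPM in aqp8a.1-high and 1285, 1237 and 517 in lyve1a-positive wells, with no overlap (log2 1.08, SE 0.19, adjusted p = 2.5e-06, edgeR). For meox1 the values were 230, 365 and 199 against 27.8, 112 and 111 CPM, also without overlap (log2 2.04, SE 0.42, adjusted p = 0.000113, edgeR). These rested on 68 and 22 UMIs of meox1. On plate 3 the sums held 20069 and 27064 UMIs of all genes, so the values of meox1 there rested on very few UMIs. In mice the related factor MEOX2 acts with TCF15 on fatty acid uptake of capillary endothelium. The zebrafish genes meox2a and tcf15 had 47 and 39 UMIs in the used wells and were not tested. By edgeR meox1 was not called without plate 1 (log2 1.53, adjusted p = 0.0843), after thinning to 500 UMIs (1.80, adjusted p = 0.121) or with double-gate wells counted as lyve1a-positive (0.97, adjusted p = 0.0805).

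Of the fatty acid-binding protein genes besides fabp11a, 2 of 10 rows held a UMI. In the lipolysis and lipoprotein list, the lipase inhibitor gene angptl4 was tested with lpl and not called (log2 -0.81, SE 0.71, adjusted p = 0.662, edgeR). Of retinoid genes, cyp26b1, which breaks retinoic acid down, stood at 169 ± 50.6 CPM in aqp8a.1-high and 120 ± 112 in lyve1a-positive wells (adjusted p = 0.988, edgeR). The cellular retinol-binding gene rbp2a was not called either (adjusted p = 0.933, edgeR). Among nuclear receptors pparda, rxraa and rarga had adjusted p-values of 0.748 to 0.915 by edgeR, and pparg had too few UMIs for the test. Of fatty acid oxidation genes, acadm and acadvl were tested and had adjusted p-values of 0.848 and 0.834 by edgeR.

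**Figure D5:**
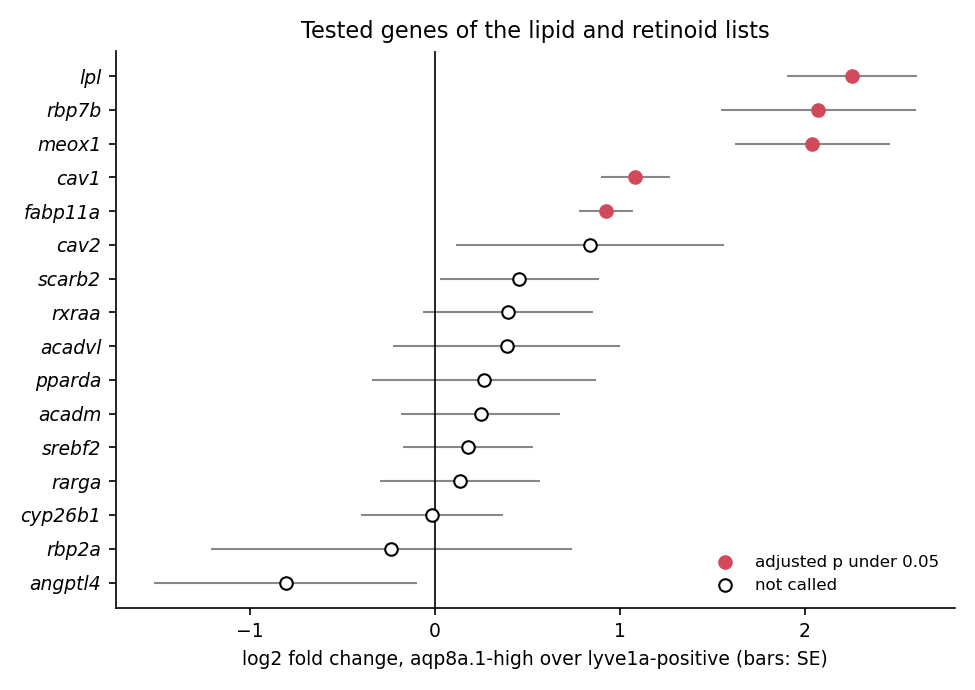
Log2 fold change of aqp8a.1-high over lyve1a-positive wells (linear axis) for the 16 tested genes of the lists; bars are SE, filled points have an adjusted p under 0.05 by edgeR. The filled points are lpl, rbp7b, meox1, cav1 and fabp11a, from 2.25 down to 0.93.

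Genes with a pattern like that of fabp11a were sought over the 12 sums of plates and classes on the log2(CPM + 50) scale, among 1331 genes with at least 100 UMIs. Nearest were micall2a (Pearson's r = 0.91), igfbp7 (0.90), ap1s3b (0.89), cav1 (0.89) and ptrfb (0.86), the last of which encodes a coat protein of caveolae. Nearest to lpl were TGFBR2 (r = 0.92), hbegfa, arhgef12b, VCL and efnb2a (0.81 to 0.82). Those genes had 160 to 257 UMIs over the 12 sums, and lpl had 277. The highest lpl value, 1345 CPM, was in the aqp8a.1-high sum of plate 3, which held 20069 UMIs. How far the r values for lpl rested on that shallow sum was not tested. The gate gene aqp8a.1 stood 23rd for fabp11a (r = 0.76) and 60th for lpl (r = 0.60). Between fabp11a and lpl themselves r was 0.19 and they ranked 399th and 387th for each other, so their sums varied differently over plates although both were higher in aqp8a.1-high wells. The sums share plates and gates, and r is given as a description.

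Other cell types can carry these genes, adipocytes and macrophages among them. Of 8 adipocyte markers 6, namely plin1, adipoqa, adipoqb, cidec, lepa and pck1, had no UMI in the used wells. The list summed to 366 to 622 CPM in aqp8a.1-high and 73.9 to 434 in lyve1a-positive wells, and nearly all of it was cfd, with 425 UMIs. Macrophage markers summed to 0 to 9.88 and 0 to 111 CPM, with 1 and 3 UMIs. Erythroid markers, mostly globins, summed to 99.7 to 980 and 0 to 185 CPM, and neutrophil markers to 9.88 to 99.7 and 0 to 1848. Keratinocyte markers summed to 630 to 1165 and 554 to 1112.5 CPM, with krt4 at 722 and krt15 at 260 UMIs in the used wells. In double-gate wells erythroid markers summed to 24.8, 4037 and 0 CPM by plate. Neutrophil markers summed to 203 to 2321 CPM in neither-gate wells. The part of other cell types in the results for those 2 classes was not tested. Without wells that held at least 2 UMIs of adipocyte, macrophage, neutrophil, fibroblast, muscle or erythroid markers, the log2 differences were 0.88 for fabp11a (adjusted p = 2.44e-06), 1.76 for lpl (adjusted p = 0.0011) and 1.96 for rbp7b (adjusted p = 0.0462) by edgeR. Wells with keratinocyte markers were not left out there, and their part in the results was not tested. With gates from other blood and lymphatic markers, without aqp8a.1 and lyve1a, fabp11a differed by 1.41 (adjusted p = 2.14e-07) and lpl by 3.02 (adjusted p = 0.000407), and rbp7b did not pass the filter on low counts. With vsg1 also left out of those gates, a choice made after the data were seen, fabp11a differed by 1.19 (adjusted p = 6.62e-06) and lpl by 3.57 (adjusted p = 3.24e-07) by edgeR, and rbp7b again did not pass the filter.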

How the data were processed

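The authors deposited, for each plate, raw UMI counts per gene and well. The submitters' processing notes name Bowtie2, with no version, and GRCz10; the annotation and the UMI collapsing are not analysed here. The authors' well tables list 384, 384 and 268 analysed wells. Lists were matched by symbol or RefSeq synonym; coordinates and sequences were not used here.

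UMIs of listed wells with at least 500 were summed into 12 sums (plate by class, 10 or more wells each). edgeR 4.0.16 under R 4.3.3 (TMM factors, filterByExpr, quasi-likelihood) included the plate, because classes of 1 plate share its library. Gate genes stayed out of the tests. An SE is the log2 difference over the square root of F. Wells were thinned without replacement (seed 1). Tested on simulated counts for aqp8a.1-high against lyve1a-positive wells (1909 genes), 28.9% of 2-fold and 85.1% of 4-fold changes were called, with 2 false calls among 104. The simulated counts had no differences between plates beyond depth and a common spread for all genes. Changes were placed only in genes that passed the filter. These rates therefore need not hold for the real plates, which differed in gene levels. Named were the members, list genes that passed, and the 5 genes nearest to fabp11a and lpl; list genes named without a call were chosen after their values were seen. Members and lists were chosen with earlier results of these data known. Alternatives varied scaling, tool (DESeq2 1.42.0), filter, gates, depth, wells and plates.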

Additional observations from a re-analysis of the deposited data

Results flagged for a closer look

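Signal lay in wells outside the main comparisons. On plate 3, 45 wells with at least 500 UMIs were not on the authors' list of analysed wells. They held fabp11a at 5580 CPM (361 UMIs, exact 95% Poisson interval 5020 to 6187), lpl at 587 CPM (38 UMIs, 416 to 806) and rbp7b at 170 CPM (11 UMIs, 84.9 to 304), above the limit that a count of 0 allows. These wells entered only the alternative with all wells of a plate, where the log2 differences were 1.03 for fabp11a, 2.36 for lpl and 2.20 for rbp7b. The filter behind the list is not given in the sources used here.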

How the results depend on the processing

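Between aqp8a.1-high and lyve1a-positive wells, fabp11a and lpl kept their direction and call in 20 of 20 alternatives (log2 0.50 to 1.41 and 1.57 to 3.57), and so did cav1 in 20 of 20; meox1 kept its call in 16 of 19. For rbp7b the call held in 13 of 18 and was lost without an expression filter (1.97), in wells of at least 1000 UMIs (2.10), with double-gate wells counted as lyve1a-positive (1.17), after thinning (log2 1.395, adjusted p = 0.321) and without plate 2 (1.89 to 2.77 over left-out plates). The fit in the report called 142 genes; separate fits called 67 by DESeq2, 62 without a filter, 94 without the plate block, 91 in wells of at least 1000 UMIs, 84 with double-gate wells as lyve1a-positive, 55 after thinning, 69 with the other marker gates, 94 without wells of other cell types, and 30 to 157 without 1 plate. In double-gate wells 11 and 46 genes were called against aqp8a.1-high and lyve1a-positive wells, 0 (by edgeR, with 103 at an unadjusted p under 0.05; DESeq2 with the block called 0 too) and 17 without the replicate block, and 1 to 17 and 10 to 43 without 1 plate. In neither-gate wells 23 and 80 were called, 7 and 26 without the block, and 5 to 22 and 4 to 81 without 1 plate. Values near 0 changed sign when plates were left out, fabp11a of double-gate against aqp8a.1-high wells (-0.17 to 0.12) and rbp7b of neither-gate against lyve1a-positive wells (-0.53 to 0.73). The difference in the share of wells with fabp11a was 9.47 percentage points thinned and 2.67 unthinned. In aqp8a.1-high wells the excess of lpl with rbp7b was 19.4 percentage points thinned, 33.4 unthinned and 51.9 in wells thinned to 1000 UMIs, as means over plates. In the last setting plate 3 had 1 well with rbp7b, and the shares with and without rbp7b pooled over plates were 57.1% and 14.9%. The size of the excess was thus not fixed by these data. For aqp8a.1-high wells with lpl against without, 21 genes were called; separate fits called 6 without a filter (5 of them among the 21), 11 by DESeq2 (10 among the 21) and 0 to 11 without 1 plate. Plates pair the classes, since classes of a plate share its library, though no well is in more than 1 class. The cause of these changes was not tested.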

Other observations

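The aqp8a.1-high wells with lpl differed from those without in more than fabp11a. The 46 aqp8a.1-high wells with lpl and the 114 without were summed per plate and tested in edgeR with the plate as a block, a split made after the data were seen. Of 305 genes 21 were called, 15 of them higher in wells with lpl. Without the filter on low counts 1 gene was called as higher and 5 as lower, so the direction of most calls depended on the filter. The water channel gene aqp1a.1 was higher (log2 2.02), and icn (-1.69), cdh6 (-2.07) and the transcription factor gene ebf3a (-2.54) were lower. Those 4 kept their calls in 6 of 7 alternatives and lost them without plate 3. The junction gene cdh5 (1.72) kept its call in 3 of 7 alternatives, the SoxF gene sox7 (1.41) in 1 of 6, and the BMP target gene id1 (1.35) in 1 of 7. The immediate-early genes jun (1.65) and fosab (0.87) kept theirs in 4 of 7 and 3 of 7, and malat1 (0.40), a nuclear RNA, in 0 of 7 by edgeR or DESeq2. The part of these RNAs in the other differences was not tested. These genes were chosen after their values were seen.

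The result is unstable. Calls numbered 11 in DESeq2, 15 without the plate block, 15 with double-gate wells counted in, 6 when lowly counted genes were kept, and 6, 11 and 0 without plates 1, 2 and 3, of which 10, 15, 12, 5, 6, 10 and 0 were among the 21. Without plate 3, with 0 genes called by edgeR, 104 had an unadjusted p under 0.05. The gene rbp7b did not pass the filter in this split. With double-gate wells counted in it did, and was higher in wells with lpl (log2 2.01, SE 0.43, adjusted p = 0.0154, edgeR).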
